A study of Mus musculus with 6 samples.

Results

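The genes described here are 9 genes of lipid droplet and fatty acid handling, Pparg, Plin2, Plin3, Fabp4, Fabp5, Lpl, Pnpla2, Hilpda and Angptl4, out of 55536 annotated genes. They were chosen by name, with earlier results of these data known, and every annotated transcript of each gene was counted towards it. RNA came from RAW264.7, a mouse macrophage line derived from a tumour induced by Abelson leukaemia virus and used to study inflammation and osteoclast formation. The 3 control (Ctrl) libraries came from cells given phosphate-buffered saline (PBS), and the 3 Ti libraries from cells given titanium particles, the debris that metal implants shed. All 6 share the line, and the labels list C57BL/6 as its strain, although the line is known to descend from a BALB/c mouse. The labels used here give neither a dose nor a duration. The labels do not say whether the 3 libraries of a group came from different cultures. The p-values below therefore speak only of scatter among these libraries, part or all of which may be technical.

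A lipid droplet is a store of neutral lipid inside a phospholipid monolayer, coated by perilipins and emptied by lipases. Macrophages release fatty acids from lipoproteins with lipoprotein lipase, carry them in the cytosol on fatty acid binding proteins, and either burn them or store them in droplets. The nuclear receptor PPARγ, paired with a retinoid X receptor, switches on many of these genes in response to fatty acids. Low oxygen and inflammatory signals are also known to load macrophages with droplets.

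After rescaling by transcript structure, the annotated transcripts summed to between 37685950 and 60242851 estimated counts per library, and values are given as counts per 1000000 (CPM) over scaled library sizes. Bulk RNA pools all cells of a culture, so fewer cells of a kind and less RNA per cell cannot be told apart in any value below. A floor of 3 rescaled counts stood at 0.0498 to 0.0796 CPM, for counting error only. Macrophage identity was checked with 8 markers, of which 7 had at least 3 counts in every library. The list summed to 5222 to 6953 CPM in control and 6470 to 8300 CPM with Ti, mostly from Lyz2 (3745 to 5363 CPM). Csf1r was uneven, at 472, 1462 and 1598 CPM in control replicates 1 to 3 and 1387, 144 and 435 in Ti replicates 1 to 3. Itgam ran from 11.9 to 112 CPM, whereas Adgre1 and Cd68 stayed between 52.1 and 74.9 CPM. Mrc1, a mannose receptor of some macrophages, was at 0 in all 6 libraries. Of 8 adipocyte markers, Lep, Cidec, Cfd and Plin4 were at 0 in every library, and only Lipe, which is also one of the lipolysis genes below, had at least 3 counts in all. The adipocyte list summed to 3.86 to 23.0 CPM in control and 4.53 to 8.54 CPM with Ti. Almost all of that was Lipe, at 19.5, 23.0 and 3.86 CPM in control replicates 1 to 3. In Ti replicates 1 to 3 Lipe stood at 4.53, 8.54 and 7.67 CPM. All 8 fibroblast markers stayed below 1 CPM throughout.

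Which of the annotated starts of Pparg and Hilpda carried the RNA can be read from the transcript values, and the DNA just before those starts is shown for that reason. Pparg has 7 annotated transcripts, of which 5 were at 0 in all 6 libraries. Pparg-202, which begins at the start that gives the widely expressed γ1 form, held 98.8% of the gene's rescaled counts over the 6 libraries, and all of them in 5. In Ti replicate 1 it held 18.4% of the level per length, and the retained-intron transcript Pparg-203, which starts at position 115362350, close to the start of Pparg-204, held 81.6% from 0.873 rescaled counts. Pparg-201, whose own first exon gives the γ2 form known from adipocytes, was among those at 0, as was Pparg-204. The 50 bases before each start follow, from RefSeq's promoter table for GRCm38, 5′ to 3′ on the plus strand, with CpG dinucleotides in capitals.
Pparg-202, chr6:115360901-115360950: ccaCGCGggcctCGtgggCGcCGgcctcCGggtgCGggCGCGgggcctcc
Pparg-204, chr6:115362242-115362291: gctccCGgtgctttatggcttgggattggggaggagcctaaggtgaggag
Pparg-201, chr6:115422016-115422065: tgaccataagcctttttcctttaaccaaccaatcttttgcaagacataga
The stretch before Pparg-202 was 88% G and C with 9 CpGs, against 60% with 1 CpG before Pparg-204 and 36% with none before Pparg-201.

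Hilpda likewise has 2 starts on chromosome 6. Hilpda-201, the downstream one, held 99.8% of the gene's rescaled counts. The 30 bases before each start are shown on the plus strand of GRCm38, with the hypoxia response core (ACGTG or GCGTG, either strand) in capitals.
Hilpda-202, chr6:29272458-29272487: cggtgaggctgaacctcatgctgttcactc
Hilpda-201, chr6:29272596-29272625: cgagctcgtgcaggttcggtacGCGTGcgc
Over the 250 bases before each start in RefSeq, the core was found 3 times before Hilpda-201 and 0 times before Hilpda-202. RefSeq's table held 8 promoters for 5 of the 9 genes (Hilpda, Plin2, Plin3, Pnpla2 and Pparg). The core occurred in 3 of these 8, against 38.6% of all 32851 promoters in the table. The PPAR response element, 2 copies of AGGTCA in the same direction with 1 base between them, was in 0 of 8, against 0.0335% of all. A string this rare would be missing from almost any 8 promoters, so its absence says nothing about these genes. Lpl, Fabp4, Fabp5 and Angptl4 had no promoter there to search. The AP-1 site TGANTCA was in 1 of 8, against 6.75%. A loose NF-kB pattern, GGG and CC with any 5 bases between them, was in 7 of 8, against 45.8%. The 8 promoters are not independent, as Pparg has several and the 2 of Hilpda overlap. Their G and C content ran from 40.8% to 82.4%, and the shares over all promoters were not matched for it. All patterns were searched on both strands, and a match is a description of the letters only.

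The comparison of Ti with control asked whether these lipid genes differed after exposure to the particles. None of them passed the test across all genes: 0 of the 8 genes tested had an adjusted p under 0.05 (edgeR quasi-likelihood test, Benjamini-Hochberg adjustment), and 0.0260% of all tested genes, 4 of 15376, did (0.0130% higher and 0.0130% lower with Ti). With the replicate number as a block, edgeR called 0 genes of all 15376. Fabp4 was too scarce to be tested. At an unadjusted p under 0.05, 2 of the 8 passed in edgeR, Plin2 and Fabp5, both higher with Ti. Of all tested genes 6.76% were under that level, 3.42% higher and 3.34% lower. With the block 4 of the 8 were (Plin2, Fabp5, Lpl and Angptl4), against 9.37% of all. DESeq2 called 0 of the 8 and 1.90% of all tested genes, and 2 of the 8 had an unadjusted p under 0.05 in it, against 8.53% of all. Of the 8, 3 had positive and 5 negative log2 fold changes, with a median of -0.22 against 0.0053 over all tested genes. Dropping control replicate 3 turned that median to 0.25, dropping Ti replicate 1 to 0.071, and dropping control replicate 1 moved it to -0.017.

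The droplet coat came first. Plin2 (ENSMUSG00000028494, GRCm38 chromosome 4, 86648386 to 86670060, minus strand) encodes perilipin 2, the main coat protein of macrophage droplets. Its 3 control libraries, in order of replicate number here and below, read 20.3, 22.9 and 31.3 CPM, and its 3 Ti libraries 41.9, 33.2 and 40.1 CPM. Every Ti library lay above every control library, which held for 6.63% of all tested genes. The control mean was 24.9 ± 5.75 CPM and the Ti mean 38.4 ± 4.60 CPM (SD, n = 3 each). In log2 terms Ti exceeded control by 0.63 ± 0.20 (SE), with a 95% interval of 0.14 to 1.12 and an edgeR adjusted p of 0.615. Fits with 5 of the 6 libraries ranged from 0.50 to 0.83. Its protein-coding transcript ENSMUST00000000466 held 92.7% of the rescaled counts and had a log2 fold change of 0.64 ± 0.20 on its own.

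Plin3 (ENSMUSG00000024197, chromosome 17, 56277476 to 56292873, minus strand), perilipin 3, coats young droplets and shuttles between them and the cytosol. Its control values of 11.9, 11.3 and 30.8 CPM enclosed the Ti values of 10.1, 21.1 and 16.8 CPM, apart from the lowest Ti library. The log2 fold change was -0.17 ± 0.48 with an interval of -1.33 to 0.99, and fits with 5 of the 6 libraries ranged from -0.42 to 0.46. It turned positive without control replicate 3, the highest library (0.46), and without Ti replicate 1 (0.071).

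**Figure D1:**
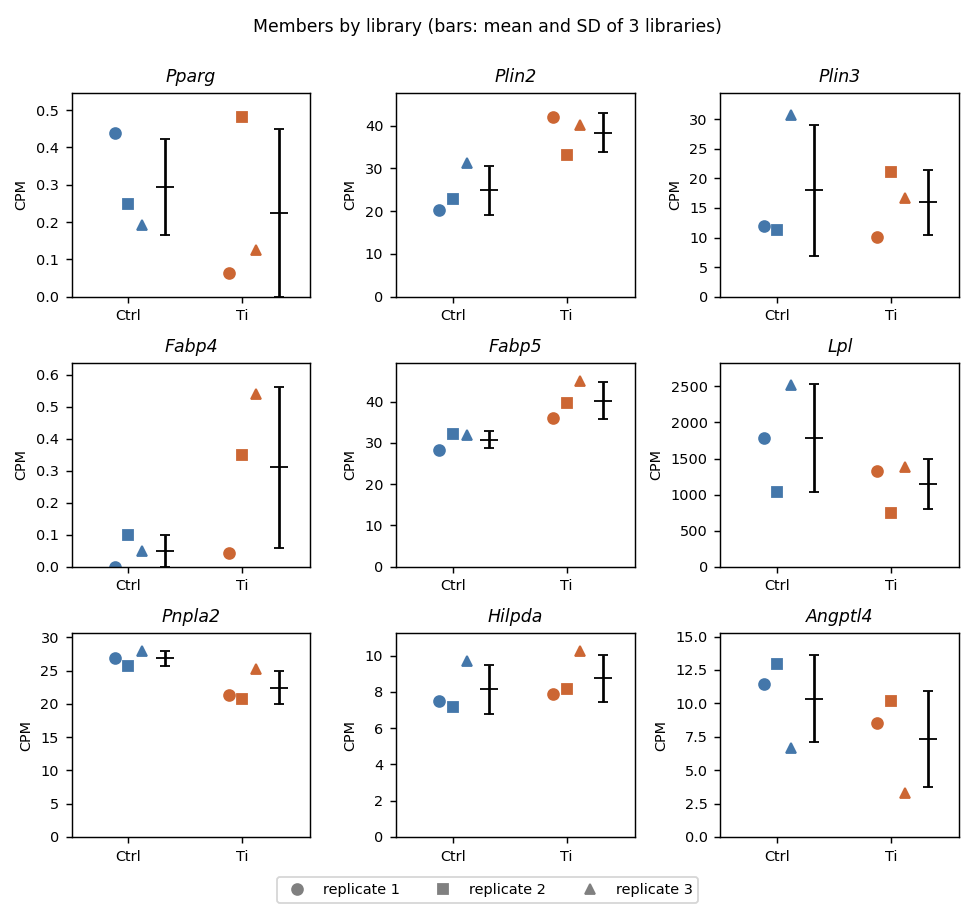
CPM of each of the 9 genes (vertical axes, each from 0) in the 3 control and 3 Ti libraries, with marker shapes for replicate number and black bars for mean and SD, cut off at 0. Plin2 and Fabp5 sit higher in all 3 Ti libraries than in any control library, Pnpla2 sits lower, and the other 6 overlap. Of all tested genes, 13.3% did not overlap between groups.

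Hilpda (ENSMUSG00000043421, chromosome 6, 29272488 to 29275446, plus strand) encodes a small droplet protein that inhibits adipose triglyceride lipase and is induced by low oxygen and fatty acids. It stood at 7.52, 7.18 and 9.68 CPM in control and at 7.85, 8.14 and 10.2 CPM with Ti. The replicates numbered 3 were the highest of both groups, and the groups overlapped. Its log2 fold change was 0.11 ± 0.20 (interval -0.39 to 0.60), and it ran from -0.020 without Ti replicate 3 to 0.25 without control replicate 3.

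Pnpla2 (ENSMUSG00000025509, chromosome 7, 141455198 to 141460743, plus strand) encodes that lipase, which takes the first fatty acid off a stored triglyceride. It stood at 26.9, 25.8 and 28.0 CPM in control and at 21.4, 20.7 and 25.3 CPM with Ti. Every Ti library lay below every control library, as in 6.71% of all tested genes. Its log2 fold change was -0.26 ± 0.13 (interval -0.59 to 0.068, edgeR adjusted p = 0.816). On the level per length described below it was -0.41 ± 0.21.

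Control replicate 1 differed from the other libraries in the Pnpla2 transcripts assigned. There ENSMUST00000064151, a protein-coding transcript, stood at 947 rescaled counts, and it was at 0 in the other 5 libraries. The longer ENSMUST00000164016, whose exons hold all 1799 bases of the shorter one, made up 18.1% of the gene's level per length in that library and 81.9% to 98.9% in the others. A retained-intron transcript of Pnpla2, ENSMUST00000169723, chosen after its values were seen, read 17.6, 36.4 and 28.1 rescaled counts in control and 3.31, 1.65 and 7.72 with Ti. It held 1.37% of the gene's counts, and its log2 fold change was -2.66 ± 0.66 (edgeR adjusted p = 0.805 over all tested transcripts).

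Fatty acid supply was next. Lpl (ENSMUSG00000015568, chromosome 8, 68880491 to 68907448, plus strand) encodes lipoprotein lipase, which frees fatty acids from lipoprotein triglyceride outside the cell. It stood at 1784, 1030 and 2525 CPM in control and 1321, 750 and 1380 CPM with Ti. All 3 Ti libraries were below the control mean, but the lowest control library was below 2 of them. The log2 fold change was -0.63 ± 0.38 (interval -1.55 to 0.29, edgeR adjusted p = 0.847). Dropping control replicate 3 gave -0.29, dropping Ti replicate 2 gave -0.40, and dropping control replicate 2 gave -0.91. With replicate number as a block the value was -0.59 ± 0.12 (edgeR adjusted p = 0.390).

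The Lpl value depended on which transcript the estimates favoured. In control replicates 1 and 3 and Ti replicate 1, Lpl-201, a protein-coding transcript of 4115 exonic bases, held 95.6%, 90.1% and 77.5% of the gene's level per length. In control replicate 2 and Ti replicates 2 and 3 it held 3.56%, 3.21% and 2.53%, and Lpl-203, a nonsense-mediated decay form in the annotation, held 91.6%, 92.0% and 86.9%. Lpl-203 made up 30.6 ± 52.8% on average in control and 65.7 ± 41.1% with Ti (SD, n = 3 each, exact permutation test, two-sided p = 0.3, where 0.1 is the smallest that 3 against 3 allows).

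These 2 Lpl transcripts share 1684 exonic bases, which is 88.6% of Lpl-203, and differ mainly in 2431 bases that only Lpl-201 has. Because the rescaling multiplies a transcript by its exon length over its genomic span, a value counted on Lpl-201 weighs 2.20 times the same value on Lpl-203. Without that weight the group difference was smaller. As a level per length, which divides each transcript by its span before summing, Lpl stood at 539, 628 and 868 parts per 1000000 (ppm) of the sum over all annotated transcripts in control and at 495, 421 and 913 ppm with Ti (exact permutation test, two-sided p = 0.7). The log2 fold change was -0.21 ± 0.31 on that scale with limma and -0.16 ± 0.27 with unrescaled values in edgeR.

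**Figure D2:**
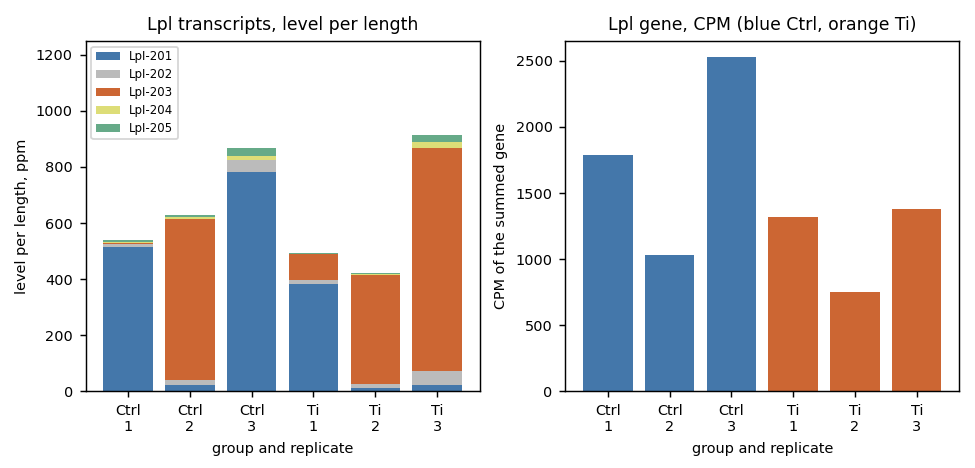
Left, Lpl level per length in each library as stacked bars, 1 colour per annotated transcript. Right, CPM of the summed gene in the same libraries. Lpl-201 dominates in control replicates 1 and 3 and Ti replicate 1, and Lpl-203 in the other 3, and the left-hand totals of 421 to 913 ppm do not follow the order of the right-hand bars.

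Angptl4 (ENSMUSG00000002289, chromosome 17, 33773750 to 33781830, minus strand) encodes a secreted inhibitor of lipoprotein lipase and is a known target of PPARs. It stood at 11.4, 12.9 and 6.66 CPM in control and at 8.56, 10.2 and 3.27 CPM with Ti. Here the replicates numbered 3 were the lowest of both groups. The log2 fold change was -0.50 ± 0.47 (interval -1.64 to 0.64, edgeR adjusted p = 0.933). It was -0.14 when Ti replicate 3 was dropped, -0.31 when control replicate 2 was and -0.81 when Ti replicate 2 was. A block for replicate number gave -0.59 ± 0.20 (edgeR adjusted p = 0.525). ENSMUST00000173869, a decay form of Angptl4, was present only in control replicates 2 and 3, at 96.6 and 66.1 rescaled counts, and was at 0 in the other 4 libraries.

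Carriers inside the cell are the fatty acid binding proteins, and both measured here lie on chromosome 3. Fabp5 (ENSMUSG00000027533, chromosome 3, 10012548 to 10016607, plus strand), the epidermal form, stood at 28.3, 32.1 and 31.8 CPM in control and at 36.1, 39.6 and 44.9 CPM with Ti. Every Ti library lay above every control library, as in 6.63% of all tested genes. The control mean was 30.8 ± 2.09 CPM and the Ti mean 40.2 ± 4.43 CPM (SD, n = 3 each). The log2 fold change was 0.39 ± 0.13, with an interval of 0.062 to 0.71 and an edgeR adjusted p of 0.646, and fits with 5 of the 6 libraries ranged from 0.30 to 0.46.

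Fabp4 (ENSMUSG00000062515, chromosome 3, 10204088 to 10208576, minus strand), the adipocyte and macrophage form that PPARγ is known to induce, was near the floor. Its rescaled counts were 0, 4 and 2 in control and 2, 13 and 26 in Ti replicates 1, 2 and 3. Its spliced transcript was at 0 in all control libraries and in Ti replicate 1, and stood at 11.6 and 23.4 rescaled counts in Ti replicates 2 and 3. The other transcript, a retained-intron form of 1 exon, gave every count seen in control. With 1 Ti library at the control level, the groups overlapped.

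Pparg (ENSMUSG00000000440, chromosome 6, 115360951 to 115490399, plus strand), the receptor itself, was scarce too. It stood at 28, 10 and 8 rescaled counts in control and 3, 18 and 6 with Ti, or 0.293 ± 0.129 and 0.224 ± 0.226 CPM (SD, n = 3 each). The log2 fold change of -0.44 ± 0.77 had an interval of -2.33 to 1.44, which holds differences of 1 log2 unit either way. Dropping Ti replicate 2 gave -1.62, dropping Ti replicate 1 gave 0.010, and dropping control replicate 1 gave -0.017. The value was -0.14 when Ti replicate 3 was dropped and -0.036 per length with limma.

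**Figure D3:**
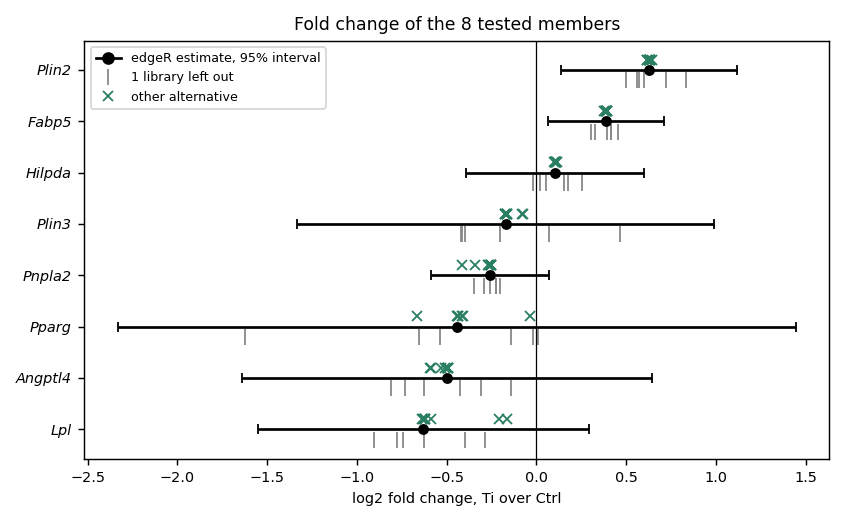
Log2 fold change of Ti over control for the 8 tested genes (horizontal axis), with the edgeR estimate and its 95% interval in black, fits without 1 library as grey ticks and other alternatives as green crosses. Only the intervals of Plin2 (0.14 to 1.12) and Fabp5 (0.062 to 0.71) lie above 0 before any adjustment, and Lpl has 2 crosses, at -0.21 and -0.16, apart from the rest.

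Levels of different genes were compared per length, as deposited values over genomic span summed per gene, in ppm. Lpl averaged 678 ± 170 ppm in control and 610 ± 265 with Ti (SD, n = 3 each), and ranked between 110 and 229 among 55536 genes in the 6 libraries. Fabp5 followed at 36.5 ± 3.46 and 47.9 ± 5.55 ppm, and Plin2 at 18.6 ± 6.29 and 28.3 ± 6.12 ppm. The ranges of these 3 genes did not overlap in either group.

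Below them the order was less sharp. Pnpla2 stood at 15.04 ± 2.02 ppm in control and 11.2 ± 2.33 with Ti, and Hilpda at 10.6 ± 2.51 and 11.4 ± 2.33. Their ranges overlapped in both groups, and Pnpla2 was above Hilpda in 4 of 6 libraries. Plin2 overlapped with Pnpla2 in control and not with Ti, where all 3 Plin2 values were higher. Plin3 (6.44 ± 4.42 and 5.47 ± 1.46 ppm) and Angptl4 (4.46 ± 1.07 and 2.97 ± 0.927 ppm) overlapped in control and not with Ti. Pparg (0.17 ± 0.071 and 0.16 ± 0.086 ppm) and Fabp4 were lowest, and the Fabp4 values ran from 0 to 0.029 ppm in control and from 0.014 to 0.74 with Ti.

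**Figure D4:**
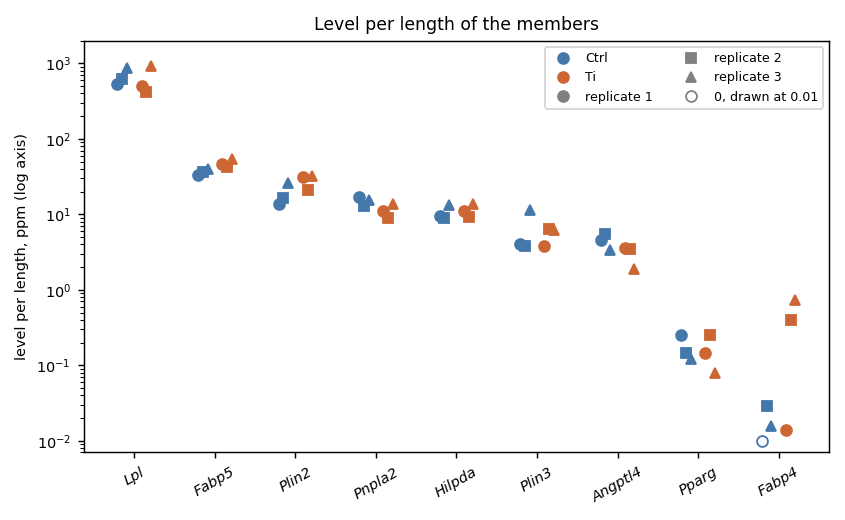
Level per length of the 9 genes (vertical log axis, ppm) in each library, ordered by the control mean, with colour for group and shape for replicate. Lpl lies at 421 to 913 ppm, above Fabp5 and Plin2, and Pparg and Fabp4 lie below 1 ppm in all 6 libraries. The open point at 0.01 stands for a value of 0.

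Lpl, Plin2 and Fabp5 also shared a pattern by replicate number, in a share that was summed for these 3 members only. Transcripts annotated as retained introns or as processed transcripts, neither of which codes for protein, made up 9.77% of Lpl level per length in control replicate 3 and 10.6% in Ti replicate 3, against 4.21% to 4.85% in the other 4 libraries. For Plin2 these shares were 16.3% and 18.9% against 2.80% to 8.05%, and for Fabp5 4.82% and 5.34% against 2.10% to 3.29%. Over all annotated transcripts they were 6.61% and 6.62% against 5.13% to 6.12%. Not every member followed. The retained-intron transcript of Pnpla2 held 2.17%, 9.34% and 6.52% in control and 0.936%, 0.606% and 1.71% with Ti. That of Angptl4 held 9.21%, 0.372% and 1.97% in control and 0.552%, 0.581% and 37.0% with Ti. In both, Ti replicate 3 was the highest Ti library, but control replicate 3 was not the highest control library. Whether the higher shares in the replicates numbered 3 play a part in the gene values above was not tested.

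The genes whose CPM most resembled 3 of the members were found by Pearson correlation of log2(CPM + 0.5) over the 6 libraries, among 9717 genes with a mean of at least 5 CPM. For Plin2 they were Gm37978 (r = 0.9956), Slc15a4 (0.9934), a lysosomal amino acid and peptide transporter, and Tet2 (0.9904), a DNA demethylase. For Lpl they were Spg11 (0.9905), Arhgap17 (0.9858) and Gm43375 (0.9852), and for Hilpda Abt1 (0.9956), Utp14b (0.9931) and Trappc11 (0.9891). With 6 points that share library effects and so many genes to choose from, such values describe the libraries only.

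At the level of transcripts, 18 of the 39 annotated transcripts of the 9 genes could be tested, and 0 passed an adjusted p of 0.05 in edgeR, against 0.00721% of 41599 tested transcripts. Unadjusted, 3 of the 18 had a p under 0.05 (1 each of Plin2, Fabp5 and Pnpla2), against 4.29% of all. None of the 39 was of the on/off kind, below 3 rescaled counts in all libraries of one group and at 20 or more in all of the other.

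The wider pathway was read from 8 lists of related genes, of which 0 members passed the edgeR test over all genes in either direction. Fatty acid oxidation is the breakdown of fatty acids in mitochondria and peroxisomes. Of its 23 tested genes 19 had negative fold changes, with a median of -0.24 against 0.0053 over all tested genes, where 50.9% were positive. In 6 of the 23 every Ti library lay below every control library, a share of 26.1% against 6.71% of all tested genes, and 0 lay above. At an unadjusted edgeR p under 0.05, 3 were lower and 0 higher. Separation below control was not particular to oxidation. Ti lay wholly below control in 3 of 10 tested lipolysis genes, 4 of 19 PPAR family genes and 2 of 10 droplet coat genes. It lay wholly above control in 1, 2 and 1 genes of those lists. In the remaining lists the share below was 12.5% or less.

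Hadha, a subunit of the mitochondrial trifunctional protein, stood at 122, 122 and 125 CPM in control and at 108, 107 and 105 CPM with Ti, or -0.21 ± 0.079 on the log2 scale (edgeR adjusted p = 0.707) and -0.057 per length with limma. Hsd17b4, a peroxisomal enzyme of the same pathway, stood at 66.1, 66.9 and 66.9 CPM against 48.7, 51.2 and 59.4 CPM, or -0.33 ± 0.11 (edgeR adjusted p = 0.635). In both genes, picked for their small p, the Ti and control libraries did not overlap.

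Among triglyceride and lysosomal lipolysis genes, 4 of 10 tested were positive and 6 negative, with a median of -0.18 that was -0.019 per length. Lipa, the lysosomal acid lipase, stood at 482, 459 and 402 CPM in control and 359, 299 and 311 CPM with Ti. Its Ti libraries all lay below control, as in 3 of the 10 tested genes of the list and 6.71% of all tested genes. The log2 fold change was -0.47 ± 0.12 (edgeR adjusted p = 0.431). Pnpla7, a lysophospholipase, had -0.27 ± 0.12, and Abhd6, a monoacylglycerol lipase, -0.40 ± 0.18. Lipe, the hormone-sensitive lipase counted among the adipocyte markers, belongs to this list too. Its log2 fold change was -1.16 (edgeR adjusted p = 0.823), and its groups overlapped.

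Droplet coat and assembly genes were evenly split, with 5 of 10 tested positive and a median of 0.032 that was -0.0073 without control replicate 1. Of the 21 listed, 11 were not tested, among them the adipocyte coat genes Plin1 and Plin4. Soat1, which esterifies cholesterol for storage, stood at 102, 107 and 104 CPM in control and 84.7, 78.8 and 97.3 CPM with Ti, or -0.26 ± 0.11 (edgeR adjusted p = 0.736). That value was -0.13 without the rescaling and -0.054 per length. Dgat2, which makes triglyceride, read 1.28, 0.274 and 1.29 CPM in control and 2.32, 2.33 and 1.41 CPM with Ti. Its log2 fold change was 1.078 ± 0.59, and that of Hsd17b11, a droplet-associated dehydrogenase, was -0.38 ± 0.24. Dgat2 had 0.65 when control replicate 2 was dropped and 0.43 per length, and Hsd17b11 had -0.14 when control replicate 3 was dropped.

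For fatty acid uptake, binding and activation, 6 of 13 tested genes were positive, with a median of -0.031. Cd36, a scavenger receptor that takes up fatty acids and oxidised lipoprotein, stood at 225, 262 and 151 CPM in control and at 375, 433 and 224 CPM with Ti. The replicates numbered 3 were again the lowest of both groups, and the log2 fold change was 0.69 ± 0.30 (edgeR adjusted p = 0.761). With the replicate block it was 0.67 (edgeR adjusted p = 0.292). A pair of fatty acyl-CoA synthetases had opposite signs, Acsl4 with 0.31 ± 0.12 and Acsl5 with -0.25 ± 0.11.

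Partners of lipoprotein lipase had a median of 0.034, with 5 of 8 tested genes positive, and a median of -0.035 when Ti replicate 1 was dropped. Sdc4, a heparan sulfate proteoglycan of the cell surface, had 0.71 ± 0.28, and Lrp1, a lipoprotein receptor, stood at 2311, 2485 and 2586 CPM in control and 2157, 1545 and 2040 CPM with Ti, or -0.36 ± 0.14. The edgeR adjusted p was 0.731 for both. With the replicate block it was 0.290 for Sdc4 and 0.538 for Lrp1. Lmf2, related to a lipase maturation factor, had 0.26 ± 0.20. Dropping Ti replicate 3 gave 0.43 for Sdc4, and dropping Ti replicate 2 gave -0.23 for Lrp1, which had -0.18 per length. For Lmf2, dropping Ti replicate 1 gave 0.12 and dropping Ti replicate 2 gave 0.44.

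PPAR family members, partners and coregulators had a median of -0.0023, of either sign across alternatives, with 9 of 19 tested genes positive, and the 3 with the smallest p pointed in both directions. Ncoa3, a coactivator of nuclear receptors, stood at 267, 277 and 238 CPM in control and at 189, 172 and 172 CPM with Ti. Its log2 fold change was -0.55 ± 0.098 (edgeR adjusted p = 0.235), and DESeq2 called it lower (adjusted p = 0.00255). Cebpa and Cebpb, transcription factors that act with PPARγ in fat cells and are also expressed in macrophages, differed in sign. Cebpa stood at 67.5, 64.3 and 67.4 CPM against 52.1, 54.4 and 48.0 CPM, or -0.37 ± 0.099 (edgeR adjusted p = 0.473; DESeq2 adjusted p = 0.0458). Cebpb stood at 143, 147 and 133 CPM against 179, 172 and 190 CPM, or 0.35 ± 0.090 (edgeR adjusted p = 0.458). For each of these 3 genes the Ti and control libraries did not overlap, which picking them by smallest p makes likely. Over the 19 tested genes of the list, Ti lay wholly below control in 4 and wholly above in 2. Those shares were 21.1% and 10.5%, against 6.71% and 6.63% of all tested genes.

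PPAR target genes other than the 9 had a median of -0.14, with 7 of 20 tested genes positive, and a median of 0.051 without control replicate 2. This list shares members with those above, Hadha and Cd36 among them. Me1, the malic enzyme that supplies NADPH for lipid synthesis, stood at 51.0, 52.7 and 49.7 CPM in control and 61.4, 57.2 and 62.2 CPM with Ti, or 0.24 ± 0.096 (edgeR adjusted p = 0.732).

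Targets of the hypoxia-inducible factors had a median of 0.14, with 12 of 19 tested genes positive, and no gene of the list separated the groups in either direction. That median turned to -0.090 when Ti replicate 3 was dropped, was -0.0014 when control replicate 1 was, and became 0.44 when control replicate 3 was. Bnip3, a mitophagy receptor, had the largest fold change of the list, 3.07 ± 1.57, from 0.985, 0.723 and 5.44 CPM in control and 0.536, 50.3 and 9.23 CPM with Ti. It was 1.04 when Ti replicate 2 was dropped, 1.596 with the replicate block and 1.33 per length. Pdk1, which holds pyruvate back from oxidation in mitochondria, had -0.36 ± 0.19 and Kdm3a, a histone demethylase, 0.35 ± 0.18. Pdk1 had -0.23 when control replicate 3 was dropped and -0.10 per length, and Kdm3a had 0.20 when control replicate 2 was dropped and 0.52 when control replicate 3 was.

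**Figure D5:**
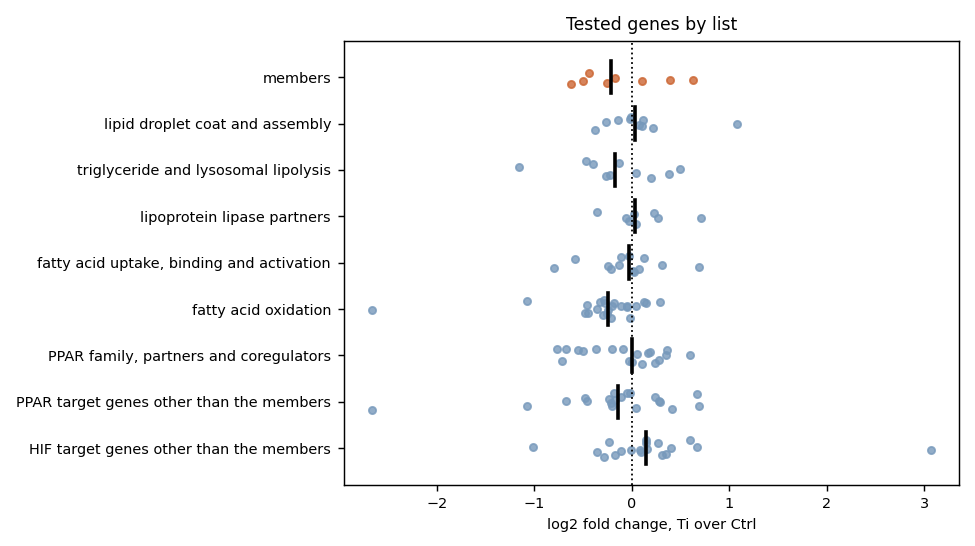
Log2 fold change of Ti over control (horizontal axis) for every tested gene of the 9 members (orange) and of the 8 related lists (blue), 1 point per gene, with thick bars for list medians and a dotted line for the median of all tested genes. Fatty acid oxidation has its median at -0.24, with 19 of 23 points below 0, the medians of the other 7 lists lie between -0.18 and 0.14, and that of the members at -0.22.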

How the data were processed

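Per the submitters' processing notes, reads were processed with HISAT2 and StringTie and the build listed is mm9; no version and no counting tool is named there. Each deposited file holds estimated counts by transcript in 187351 rows, all whole numbers. Of these, 141862 matched the transcripts of GENCODE vM21, whose names and GRCm38 coordinates are used. The remaining 45489, assembled rows without a gene, were left out. They held 40.5%, 37.9% and 36.9% of the deposited total in control replicates 1 to 3. In Ti replicates 1 to 3 they held 51.2%, 40.3% and 37.8%. Whether any of them belong to the genes described here was not tested. Deposited values rose with genomic span, from a lower quartile of 4 to one of 198 across bins of span over exon length. Each was therefore multiplied by exon length over span, added up over a gene's transcripts and rounded, an approximate correction whose results are not read numbers.

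The gene test was edgeR 4.0.16's quasi-likelihood test with TMM scaling and filterByExpr in R 4.3.3, adjusted by Benjamini-Hochberg over 15376 genes at 0.05. A standard error is the log2 fold change divided by the square root of F, and 95% intervals use it with the test's degrees of freedom. Transcripts were fitted likewise. DESeq2 1.42.0 and limma 3.58.1 (log2 of level per length + 0.5, which understates changes of low genes) were alternatives, the latter chosen after seeing the data. Shares were compared by exact permutation tests in SciPy 1.17.1. In 3 simulations of 15376 genes, edgeR recovered 1.33% of 2-fold and 40.7% of 4-fold changes for Ti against control.

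The labels state no pairing of samples. Deviations from group means correlated at 0.11, 0.14 and 0.27 between samples sharing number 1, 2 or 3, and at 0.0402 at most for other pairs. The block for replicate number rests on these low correlations alone, and the main fit leaves it out. No 2 libraries of a group agreed within sampling noise. Members and lists were chosen with earlier results of these data known. Named list genes are the 3 with the smallest p of each list, of which 1 gene is not reported here; named transcripts hold at least 5% of a gene's counts, except where the text says otherwise and for the Pparg and Hilpda starts.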

Additional observations from a re-analysis of the deposited data

How the results depend on the processing

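Under 14 alternatives, 6 of which leave out 1 library, 0 of the 9 genes passed an adjusted p of 0.05 in any. Pairing the samples with the replicate number as a block left 0 genes higher and 0 lower over all genes, from 2 and 2, and changed no other call; Lpl then had an edgeR adjusted p of 0.390. DESeq2 called 163 higher and 129 lower, leaving out on/off transcripts gave 0 and 1, per-length levels with limma gave 1 and 0, and no filter gave 1 lower. Leaving out 1 library gave 1 to 8 higher and 0 to 7 lower. It moved the members' median between -0.30 and 0.25, the lipolysis median between -0.29 and -0.061, the uptake median between -0.21 and -0.012, the oxidation median between -0.23 and -0.18, the PPAR family median between -0.090 and 0.024, and the PPAR target median between -0.16 and 0.051. The oxidation median was -0.20 with a mean of at least 50 counts, and the lipolysis median -0.019 per length. Signs turned for Pparg (-1.62 to 0.010, the latter without Ti replicate 1), Plin3 (-0.42 to 0.46, the latter without control replicate 3, and 0.071 without Ti replicate 1) and Hilpda (-0.020 without Ti replicate 3, to 0.25); the cause was not tested. For Lpl the value was -0.16 with unrescaled values in edgeR and -0.21 per length with limma. The limma fit also differs in model and scaling. How far the weighing of transcripts accounts for either value was not tested. Pparg had at most 28 and Fabp4 at most 26 rescaled counts in any library.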
